A study of Arabidopsis thaliana with 8 samples.

Results

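GLDH, SRX and AT3G52960 are 3 genes of the plant antioxidant system, and each was taken as the gene of a probe that the platform annotation pairs with that gene alone. They make up 3 of the 691 genes that had a probe of their own among 3439 probes, and each is named by 1 probe. Total RNA came from wild-type Arabidopsis thaliana plants of the ecotype Landsberg, a laboratory strain, exposed for 48 h to red light (4 samples) or to white light (4 samples), both at 20 µE. All samples share the genotype and the stated light intensity, so that the spectrum is the labelled difference. The labels give no tissue, plant age or earlier light regime, and do not say whether the 4 samples of a group came from separate plants, so the p-values rest on a spread that may be technical. The question is which of these transcripts differed in abundance between the lights.

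Ascorbate and peroxiredoxins both remove the hydrogen peroxide that photosynthesis and respiration give off. GLDH (AT3G47930) encodes L-galactono-1,4-lactone dehydrogenase, an enzyme of the inner mitochondrial membrane that makes ascorbate in the last step of its synthesis and passes the electrons to cytochrome c. AT3G52960 encodes peroxiredoxin IIE of the plastid, a thiol peroxidase whose reactive cysteine reduces peroxides and is then reduced again by thiol donors. SRX (AT1G31170) encodes sulfiredoxin, which repairs some peroxiredoxins whose reactive cysteine has been overoxidized to a sulfinic acid. Whether sulfiredoxin acts on the AT3G52960 protein was not tested. Light is known to raise the demand on these systems in leaves.

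The arrays gave 1 intensity per probe and sample, in arbitrary units. Summed intensity ran from 1691 to 3196 and the median from 0.202 to 0.289, each red median being lower than the white median of its number. Probes at 0 numbered 573 to 604 on the red arrays and 393 to 468 on the white arrays. Precision is limited by having 4 arrays per light. Samples 1 and 2 of each light resembled each other, as did samples 3 and 4, with Spearman correlations across probes of 0.879 to 0.931 within these pairs and 0.690 to 0.769 between them. Samples 3 and 4 were also brighter in sum, with 2352 to 2373 against 1691 to 1823 in white light and 3172 to 3196 against 2549 to 2669 in red light. The labels do not explain the pairs, so the test of each of the 3 genes is also given with the pair as a random block. Tests used log2 values after quantile normalization, with values under a floor of 0.0716 raised to it, and called a probe at an adjusted p under 0.05. Of 3032 probes tested, 666 (22.0%) were called, 332 of them (10.9%) lower in red light. The split between 334 higher and 332 lower calls became 294 higher and 467 lower (15.4% of 3033) on the deposited scale, where the median log2 difference of all probes was -0.14 in place of -0.03.

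GLDH, the ascorbate synthesis gene, was called lower in red light with the arrays taken as independent, but not with the pair as a random block. Its intensity in white samples 1 to 4 was 0.594, 0.648, 0.374 and 0.417. In red samples 1 to 4 it was 0.221, 0.205, 0.231 and 0.266. Every white sample lay above every red sample, and the 4 red samples were close together while white samples 1 and 2 stood above white samples 3 and 4. The mean was 0.508 ± 0.133 in white light and 0.231 ± 0.0261 in red light (SD, n = 4 each). After normalization the transcript was 2.21-fold lower in red light, with a log2 difference of -1.15 ± 0.35 (SE; 95% interval -1.95 to -0.34; limma adjusted p = 0.0480). In whole plants or organs, fewer cells that express a gene and less RNA per cell cannot be told apart, here and below.

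Groups that did not overlap, with red lower, were found for 448 of the tested probes (14.8%) after normalization and for 598 (19.7%) as deposited. The 10.9% called lower is the background for the GLDH call. A lower log2 difference than that of GLDH was found for 8.74% of the tested probes. An exact two-sided permutation test of the GLDH values alone gave p = 0.0286, the smallest that 70 splits allow, if the 8 samples are taken as independent. The call lay close to the threshold and was lost when any red sample, white sample 1 or white sample 2 was left out, with limma adjusted p from 0.0932 to 0.113. In limma with the pair (samples 1 and 2, or 3 and 4, of a light) as a random block, GLDH had an adjusted p of 0.183, and 1.42% of the probes were called lower.

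**Figure D1:**
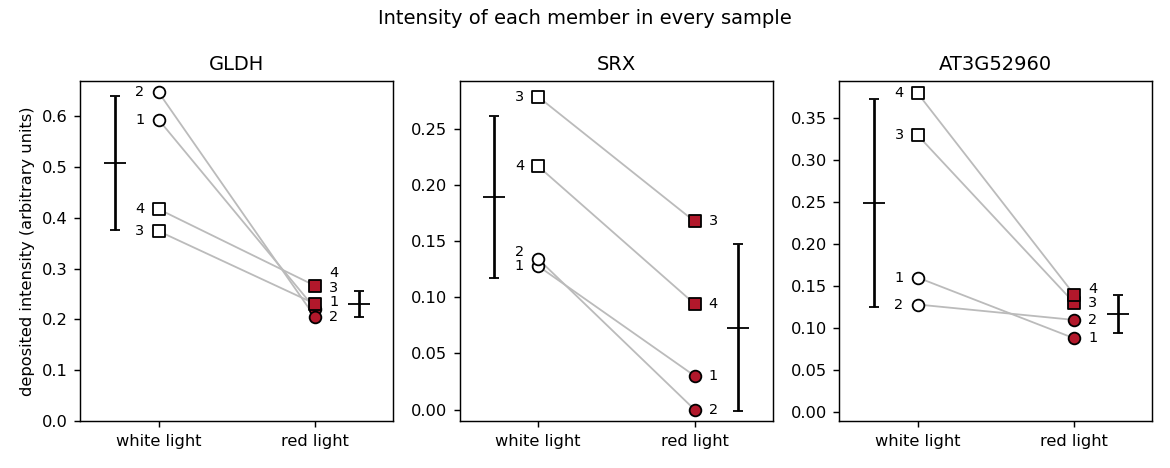
Deposited intensity (vertical axis, arbitrary units, linear and different in each panel) of GLDH, SRX and AT3G52960 in each white (open) and red (filled) sample, with same-numbered samples joined, circles for samples 1 and 2, squares for samples 3 and 4, and the mean ± SD of each group at the side (n = 4). All white samples exceed all red samples for GLDH, and each red sample lies below the white sample of its number for all 3 genes.

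Lower GLDH values in red light were seen in both pairs of samples, at different sizes. The white over red ratio of deposited intensity was 2.68 for samples numbered 1, 3.17 for samples numbered 2, 1.62 for samples numbered 3 and 1.57 for samples numbered 4. In samples 1 and 2 alone the log2 difference was -1.75 (95% interval -2.06 to -1.43, limma adjusted p = 0.00752). In samples 3 and 4 alone it was -0.54 (95% interval -0.90 to -0.19, limma adjusted p = 0.0453). These fits rest on the spread within pairs, and the difference between the pairs was not tested. Among all tested probes, the first fit called 21.0% lower and the second called 20.1%, against 10.9% for the fit of all 8 samples. In white light, samples 1 and 2 had a mean GLDH intensity of 0.621 and samples 3 and 4 one of 0.396, the opposite order to the summed intensity of those arrays. In red light it was 0.213 and 0.249.

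AT3G52960, the plastid peroxiredoxin, did not pass the test. Its intensity in white samples 1 to 4 was 0.160, 0.128, 0.329 and 0.379. In red samples 1 to 4 it was 0.0880, 0.110, 0.130 and 0.140. White samples 3 and 4 stood well above all others, while white sample 2 lay within the range of the red samples, so that the groups overlapped. The mean was 0.249 ± 0.124 in white light and 0.117 ± 0.0230 in red light (SD, n = 4 each). The log2 difference after normalization was -0.48 ± 0.37 (SE; 95% interval -1.32 to 0.36; limma adjusted p = 0.380; exact permutation p = 0.371). The random-block fit gave it a limma adjusted p of 0.645. The interval spans values from a fall larger than that fitted for GLDH to a small rise.

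For AT3G52960 the pairs of samples gave different values. The white over red ratio of deposited intensity was 1.82 for number 1 and 1.17 for number 2, but 2.53 for number 3 and 2.71 for number 4. After normalization the log2 difference was 0.06 in samples 1 and 2 alone (95% interval -0.64 to 0.75, limma adjusted p = 0.879). It was -1.02 in samples 3 and 4 alone (95% interval -1.39 to -0.64, limma adjusted p = 0.0176), where 20.1% of all probes tested were called lower. On the deposited scale the log2 difference was -0.97 (limma adjusted p = 0.0946) over all 8 samples, and with arrays centred on their medians it was -0.77 (adjusted p = 0.0966).

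SRX, the sulfiredoxin gene, did not pass the test of 4 against 4 samples either. Its intensity in white samples 1 to 4 was 0.128, 0.134, 0.278 and 0.216. In red samples 1 to 4 it was 0.0301, 0, 0.167 and 0.0940. The probe was dim, with red sample 2 listed at 0 and red samples 1 and 2 both at the floor after normalization, and the groups overlapped because red sample 3 exceeded white samples 1 and 2. The mean was 0.189 ± 0.0719 in white light, and 2 of the 4 red values lay at the floor. The log2 difference was -0.59 ± 0.38 (SE; 95% interval -1.44 to 0.27; limma adjusted p = 0.286; exact permutation p = 0.229). The random-block fit gave it a limma adjusted p of 0.592. On the deposited scale the log2 difference was -0.88 (limma adjusted p = 0.104), and with arrays centred on their medians it was -0.94 (adjusted p = 0.0752).

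Each red SRX value was nonetheless lower than the white value of the same number. The white over red ratio was 1.66 for number 3 and 2.30 for number 4, and no ratio is given for numbers 1 and 2, where the red values lay under the floor. On the normalized log2 scale the same-numbered difference, red minus white, was -0.42 for number 3 and -0.61 for number 4, and the floor limits it to -0.66 for number 1 and -0.67 for number 2. SRX itself ranged widely between samples: in white light samples 1 and 2 had a mean intensity of 0.131 and samples 3 and 4 one of 0.247, and in red light samples 3 and 4 had one of 0.131, with samples 1 and 2 under the floor. With the replicate number as a block, SRX passed narrowly, with a 95% interval of -0.996 to -0.18 (limma adjusted p = 0.0496), in a fit that called 788 probes (26.0%), 403 of them (13.3%) lower. That test rests on the same-numbered differences, of which those for numbers 1 and 2 are set by the floor. A higher floor, at the 20th percentile of positive values, gave a log2 difference of -0.17 (limma adjusted p = 0.541).

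All 3 genes thus had lower values in red light in each of 4 same-numbered comparisons on the deposited scale, as did 965 of the 3032 tested probes (31.8%). After normalization this held for GLDH and SRX, and for 742 of the tested probes (24.5%), while AT3G52960 was lower in 3 of 4. The median log2 difference of the 3 genes was -0.59, against -0.03 for all probes tested. That median is the SRX value itself, which includes red values at the floor. Of the 3 genes, 1 was called, where 22.0% of all probes were (10.9% lower). In the random-block fit 0 of the 3 were called in limma. Of the 3, only GLDH had an unadjusted limma p under 0.05 in that fit, where 547 of the 3032 tested probes had one. A lower log2 difference than that of SRX was found for 24.7% of the tested probes, and than that of AT3G52960 for 29.1%.

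**Figure D2:**
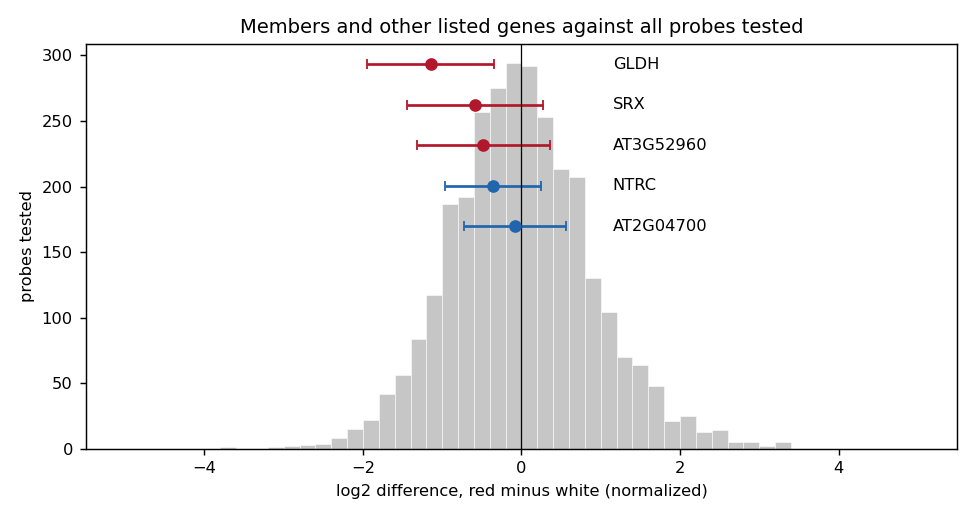
Histogram of the log2 difference, red minus white, of the 3032 probes tested (bars, number of probes), with the estimate and 95% interval of the 3 genes (red) and of NTRC and AT2G04700 (blue) drawn above it at heights with no meaning. The interval of GLDH ends below 0, and those of the other 4 genes include 0.

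SRX and AT3G52960 shared one pattern that GLDH did not have, although its share among all probes was not counted. In white light, samples 3 and 4 exceeded samples 1 and 2 in mean deposited intensity by 1.89-fold for SRX and 2.46-fold for AT3G52960. After normalization, samples 3 and 4 minus samples 1 and 2 gave log2 values of 0.86 for SRX, 1.31 for AT3G52960 and -1.29 for GLDH in white light. In red light the same differences were 0.24 for AT3G52960 and -0.09 for GLDH, and at least 1.01 for SRX, whose samples 1 and 2 lay at the floor. In white light both genes of the peroxiredoxin system were therefore higher, and GLDH lower, in the pair of brighter arrays. XERICO and AT2G25640, outside that system, were also higher there, so the pattern was not confined to it. Both were picked below for likeness to these genes, so how common the pattern was cannot be read from them. The part of the pairs in these levels was not tested.

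The rest of the antioxidant system was thinly covered. Lists of 112 genes, for ascorbate synthesis, ascorbate use and recycling, peroxiredoxins, thioredoxins and their reductases, glutathione, superoxide dismutases and catalases, and cytochrome c, had 5 genes with their own probe. These were the 3 genes above and 2 others, neither of which was called. In limma 1 of the 5 was called lower (GLDH), 0 were called higher and 4 did not pass, against 22.0% of all probes called and 10.9% called lower. In the random-block fit 0 of the 5 were called in limma. An unadjusted p under 0.05 was found there for 1 of the 5, and for 547 of the 3032 probes tested. None of the other 17 ascorbate synthesis genes, the 21 genes of ascorbate use and recycling or the other 9 peroxiredoxin genes had a probe of its own. A further 8 probes name a listed gene together with others and are left unnamed. Of these probes 0 were called in limma, with log2 differences from -0.77 to 0.69 and a lowest adjusted p of 0.0574. In that fit 2 of them had an unadjusted p under 0.05, where 1114 of the 3032 probes tested had one.

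Of the listed thioredoxins, glutaredoxins and their reductases, NTRC and AT2G04700 had a probe of their own. NTRC, a plastid thioredoxin reductase with a thioredoxin domain of its own, is known to reduce some plastid peroxiredoxins. Whether it or AT2G04700 acts on the AT3G52960 protein was not tested. Its intensity in white samples 1 to 4 was 0.536, 0.467, 0.449 and 0.400. In red samples 1 to 4 it was 0.310, 0.272, 0.522 and 0.494. Red samples 1 and 2 lay below all white samples, and red samples 3 and 4 lay among the white samples. The log2 difference was -0.36 ± 0.27 (SE; 95% interval -0.97 to 0.25; limma adjusted p = 0.365). Samples 1 and 2 alone gave -0.93 (limma adjusted p = 0.0220, where 21.0% of all probes tested were called lower), and samples 3 and 4 alone gave 0.21 (limma adjusted p = 0.172).

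AT2G04700, listed with the thioredoxin reductases, had intensities of 0.184, 0.200, 0.168 and 0.180 in white samples 1 to 4. In red samples 1 to 4 it had 0.0594, 0.165, 0.154 and 0.145. The groups did not overlap as deposited, which held with red lower for 19.7% of the tested probes, although they did after normalization, where the log2 difference was -0.08 ± 0.28 (SE; limma adjusted p = 0.868). On the deposited scale it was -0.50 (limma adjusted p = 0.209).

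**Figure D3:**
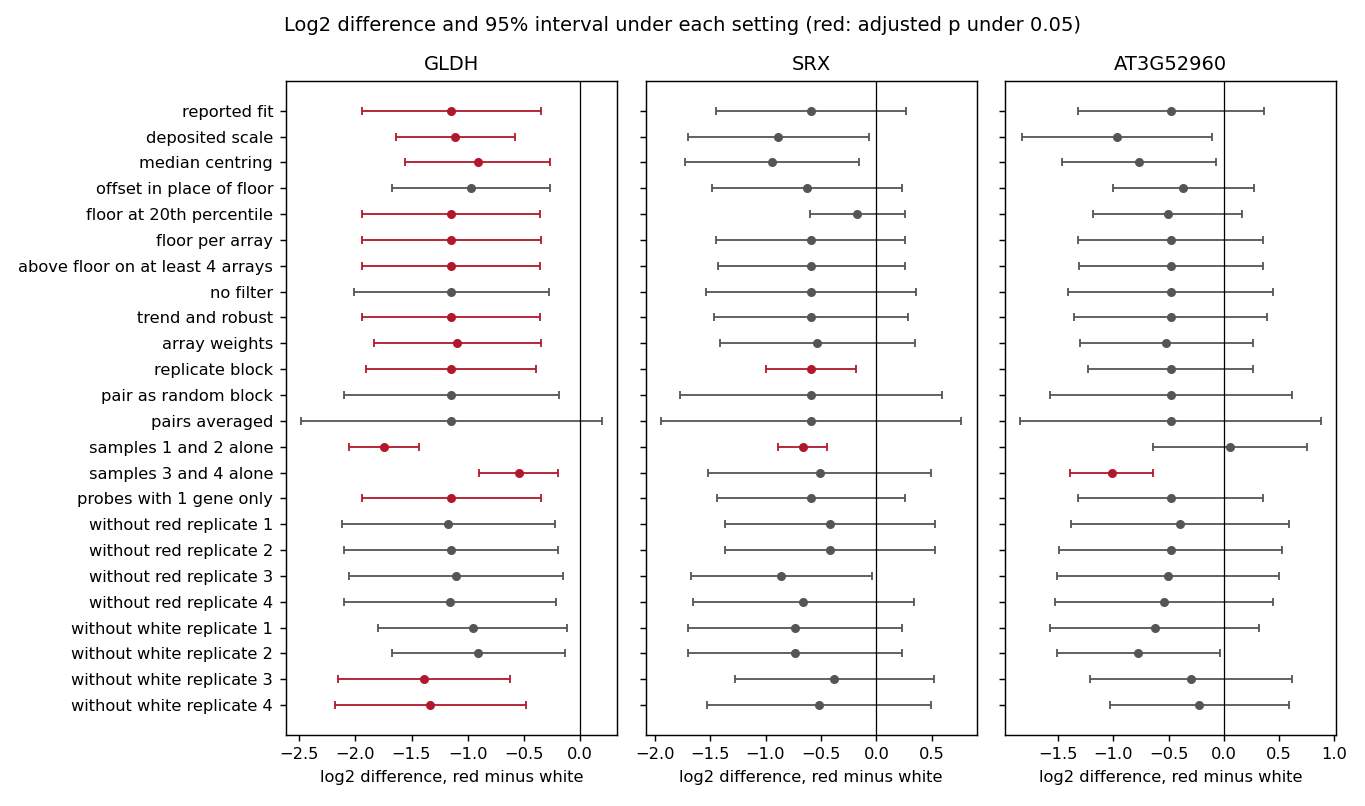
Log2 difference, red minus white (horizontal axis), with its 95% interval from limma, for GLDH, SRX and AT3G52960 under the reported fit and 23 other settings, one per line, coloured red where the adjusted p is under 0.05. GLDH lies below 0 throughout and is called under 13 of the 23, SRX under 2 and AT3G52960 under 1. All settings reuse the same samples.

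Genes of green tissue were present, although the labels name no tissue. Of 12 green tissue markers, 5 had their own probe. PSBW, a photosystem II subunit, was called higher in red light (log2 difference 1.58 ± 0.39, limma adjusted p = 0.0222, where 11.0% of the probes were called higher), with red samples 3 and 4 at the ceiling of the scale. That call was lost in the random-block fit (limma adjusted p = 0.100) and without red sample 3 or 4 or white sample 1, 2 or 4 (0.0508 to 0.0627), and the log2 difference was 2.45 on the deposited scale. The antenna gene LHB1B2 had 0.53 (limma adjusted p = 0.528), which became 1.34 as deposited and 1.54 with arrays centred on medians, where it did not pass either (adjusted p = 0.173 and 0.0742). The photosystem I gene PSAN had -0.50 (limma adjusted p = 0.275) and the Calvin cycle gene PRK -0.14 (adjusted p = 0.745), and with median centring both turned positive, at 0.18 and 0.21. SBPASE was at 0 in every sample. Of 6 root markers and 5 senescence markers, 0 had a probe of its own, so that those tissues could not be read from these arrays.

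The genes whose pattern was most like that of GLDH were AT1G61590, GH9B12 and AT3G57630, with Pearson correlations of 0.985, 0.980 and 0.980 over the 8 samples, chosen from 430 candidates above the floor on all arrays. Spearman correlations were 0.905, 0.833 and 0.952. All of them, GH9B12 of glycosyl hydrolase family 9 included, were highest in white samples 1 and 2. Because they were picked for matching GLDH over these samples, that peak and a lower mean in red light follow from the choice, and no test of them is given.

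For AT3G52960 the most alike genes were XERICO, AT3G15490 and AT3G17550, with Pearson correlations of 0.950, 0.950 and 0.946 and Spearman correlations of 0.802, 0.810 and 0.857. XERICO encodes a RING-type protein known from abscisic acid responses. Their common peak in white samples 3 and 4 follows from the choice in the same way. For SRX, with its values at the floor included, they were AT4G23080, AT2G37580 and AT2G25640, with Pearson correlations of 0.943, 0.939 and 0.939 and Spearman correlations of 0.994, 0.946 and 0.994, chosen from 431 candidates. These correlations are descriptions over samples that share arrays and the pair structure.

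**Figure D4:**
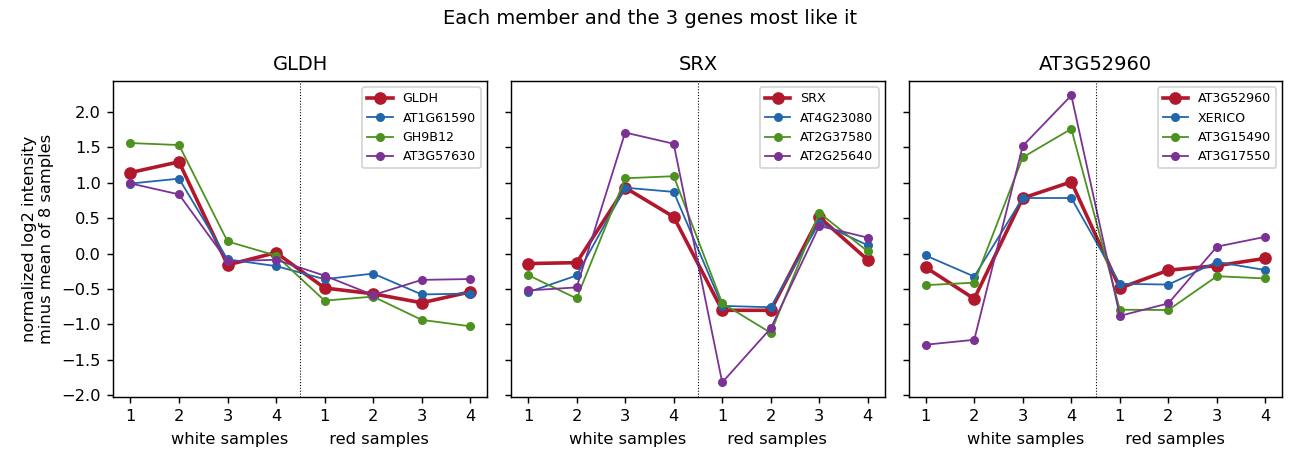
Normalized log2 intensity minus the mean of the 8 samples (vertical axis) in white samples 1 to 4 and red samples 1 to 4 (horizontal axis), for each of the 3 genes (thick red line) and the 3 genes most like it (thin lines). GLDH and its neighbours peak in white samples 1 and 2, and the SRX and AT3G52960 sets peak in white samples 3 and 4.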

How the data were processed

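The deposited table holds 1 probe intensity per sample on a linear scale. How the authors corrected, scaled or filtered the intensities is not given in the sources used here. No genome build is named, and coordinates are left out. Probes were named from the platform annotation (692 with 1 gene, 870 with several, 1877 with none), unchecked against probe sequences. Of the 692, 690 matched the TAIR10.1 gene table, used for names only.

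Arrays were quantile-normalized, values under 1 common floor (the highest of the 8 normalized 5th percentiles of positive values) were raised to it, and 407 probes at the floor on all arrays were left out. All 3 genes were tested, with SRX at the floor on 2 red arrays. Red minus white was fitted in R 4.3.3 with limma 3.58.1 (lmFit, eBayes), two-sided, with Benjamini-Hochberg adjustment over 3032 probes. Simulated data with independent samples were used to check the fit. That check does not cover arrays that resemble each other in pairs, as these do. Exact permutation tests of 3 genes are unadjusted. Intensities in the text are as deposited.

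Same-numbered samples of the lights (numbers from the titles) deviated together from their group means, with correlations across probes of 0.239 to 0.320 (-0.206 to 0.107 for other numbers), so that the replicate number was also fitted as a block. Other settings varied scaling, low values, filter, variance model, array weights and samples.

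The genes, lists and settings were chosen with earlier results of these data known. Named are the 3 genes, each listed gene with its own probe and, per gene, the 3 most correlated (Pearson) genes. Plots were made in Python 3.11.15 (matplotlib 3.10.9, pandas 2.3.3).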

Additional observations from a re-analysis of the deposited data

How the results depend on the processing

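GLDH kept its direction under all 23 other settings and its call under 13. Because every normalized white value lay above every red one, refits of those values or of subsets could not turn the direction. The kept direction is therefore not further support. The log2 difference was -0.97 with an offset (limma adjusted p = 0.0541) and stayed at -1.15 with no filter on probes at the floor (adjusted p = 0.0759), with samples 1 and 2, and 3 and 4, of a light tied by a random block (0.183) and with pairs averaged (0.392), none of which passed. Leaving out 1 sample gave -1.39 to -0.90, and the exact permutation p was then 0.0286 to 0.0857. With the replicate block GLDH kept its call (adjusted p = 0.0441), SRX at -0.59 gained one, and AT3G52960 (adjusted p = 0.271) had none. In samples 1 and 2 alone SRX gave -0.67 (adjusted p = 0.0137), a test whose 2 red values are both at the floor, so that their spread of 0 is set by it and the call is not read as support. AT3G52960 passed in samples 3 and 4 alone (-1.02). Leaving out 1 sample gave -0.86 to -0.38 for SRX and -0.77 to -0.22 for AT3G52960, with no call. The 5 listed genes gave 0 limma calls with an offset, with no filter, with the random block and with averaged pairs, 2 with the replicate block, 3 in samples 1 and 2 alone (SRX among them), 2 in samples 3 and 4 alone and 0 to 1 without 1 sample. Over all probes, limma called 1254 with a floor for each array (median log2 difference 0.20), 114 with the random block, 0 with averaged pairs (458 at an unadjusted p under 0.05), 1268 in samples 1 and 2 alone, 1176 in samples 3 and 4 alone, 167 among the 614 probes with 1 gene, where fewer were tested, and 453 to 613 without 1 sample. The floors for each array ran from 0.0654 to 0.0716 on red arrays and from 0.0234 to 0.0385 on white arrays. That setting therefore gives a probe under the floor on all arrays a higher red value. SBPASE, at 0 in every sample, had a log2 difference of 1.16 there (limma adjusted p = 0.00355), so such calls are not read as results. The causes of the other changes were not tested. Dim signal limits SRX most, since 2 of its 8 values lay at the floor.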
